A study of Homo sapiens with 6 samples.

Results

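The cancer-testis antigen genes examined here were the rows of the deposited signal table whose gene symbol began with MAGEA to MAGEH, GAGE, XAGE, PAGE and a digit, SSX and a digit, BAGE or CTAG, or was PRAME, DDX43, CSAG1 or CSAG2. There were 76 such rows among 25438 rows with a gene symbol and 38275 rows in all. RNA came from A375, an established human melanoma cell line, kept in DMEM with fetal bovine serum. Flasks of 100000 cells were grown for 3 days either with leflunomide at 25 µM or with DMSO, the solvent control, and 3 arrays were run per treatment. Leflunomide is an immunosuppressant whose active form inhibits dihydroorotate dehydrogenase, an enzyme of pyrimidine synthesis. Whether the 3 arrays of a treatment stand for separate cultures is not given in the labels, so each p-value measures array-to-array spread, possibly of technical origin.

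Cancer-testis antigens are proteins that adult tissues make mainly in testicular germ cells and that many tumours, melanoma among them, make again. Their genes are silenced in most other tissues, with methylation of CpG dinucleotides in the promoter as a main mark, and peptides of several of them are recognised by T cells of melanoma patients. Most lie on the X chromosome in clusters of near-identical copies. Of the 76 rows, 60 matched a current RefSeq symbol and 9 an older one, and 60 of these 69 rows lay on X. The rows GAGE1 and GAGE4 both matched the gene GAGE1, and the rows GAGE7 and GAGE7B both matched GAGE12F. The names took in a few genes outside these antigen families. SSX2IP encodes a centrosomal partner of SSX2, CTAGE5 is an older symbol of MIA2, a gene for cargo export from the endoplasmic reticulum, and MAGED to MAGEH are MAGE genes that many normal tissues also express.

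RefSeq promoter sequences are shown for the members whose level differed between treatments in at least 1 fit, as far as the table held them, and for MAGEC2 beside MAGEC1. The 250 bases before the annotated start in GRCh38.p14 are given for MAGEC1 at chrX:141903644-141903893 (plus strand), its relative MAGEC2 at chrX:142205291-142205540 (minus strand), PAGE1 at chrX:49695985-49696234 (minus strand), MAGED1 at chrX:51802826-51803075 (plus strand) and SSX2 at chrX:52707179-52707428 (minus strand). Each is written 5′ to 3′ on the gene's strand, with every CG dinucleotide in capitals.
MAGEC1: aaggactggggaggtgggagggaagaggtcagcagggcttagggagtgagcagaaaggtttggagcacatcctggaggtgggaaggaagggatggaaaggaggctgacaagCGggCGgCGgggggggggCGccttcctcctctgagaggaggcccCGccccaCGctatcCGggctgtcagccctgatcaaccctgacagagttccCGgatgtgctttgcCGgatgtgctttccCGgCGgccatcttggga
MAGEC2: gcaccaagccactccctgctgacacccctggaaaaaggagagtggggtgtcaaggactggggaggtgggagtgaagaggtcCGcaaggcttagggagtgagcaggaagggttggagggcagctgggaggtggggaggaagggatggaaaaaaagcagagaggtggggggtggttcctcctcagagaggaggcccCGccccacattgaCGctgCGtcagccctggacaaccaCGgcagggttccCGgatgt
PAGE1: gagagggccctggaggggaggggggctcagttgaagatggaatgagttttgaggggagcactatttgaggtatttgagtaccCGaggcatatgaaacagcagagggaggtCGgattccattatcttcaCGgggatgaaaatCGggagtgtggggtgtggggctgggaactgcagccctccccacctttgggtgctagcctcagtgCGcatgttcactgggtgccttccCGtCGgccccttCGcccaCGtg
MAGED1: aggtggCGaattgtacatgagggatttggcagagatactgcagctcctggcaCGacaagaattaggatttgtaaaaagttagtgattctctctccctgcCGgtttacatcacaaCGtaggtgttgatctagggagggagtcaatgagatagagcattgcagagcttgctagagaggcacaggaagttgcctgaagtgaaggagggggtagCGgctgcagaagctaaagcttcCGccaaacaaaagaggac
SSX2: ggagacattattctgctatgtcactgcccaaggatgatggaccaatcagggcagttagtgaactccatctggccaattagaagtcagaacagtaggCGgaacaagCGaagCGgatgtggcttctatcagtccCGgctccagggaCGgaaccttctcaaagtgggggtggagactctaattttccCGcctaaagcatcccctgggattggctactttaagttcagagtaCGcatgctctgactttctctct
These windows held 11 CG dinucleotides in MAGEC1, 6 in MAGEC2, 9 in PAGE1, 6 in MAGED1 and 7 in SSX2. The motif CG reads the same on both strands. Over the 24 tested members with a promoter entry the median was 9, with a range of 4 to 26, against a median of 6 and a range of 1 to 22 over the 27 members with an entry that were not tested. Among the 24, GAGE1 and GAGE4 share a window, as do GAGE7 and GAGE7B. Over one entry for each of 27305 genes the median was 10, and 93.4% of the windows held at least 1 CG. The counts describe sequence only, since methylation was not measured here.

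A375 cells gave signal above background for 41 of these 76 rows. The deposited detection p-value of a row of 1 probe ranks its signal against the negative control beads of that array. For a row that combines several probes it need not rank the row's signal. On leflunomide replicate 3, for example, MAGEA4 read 872 units with a detection p-value of 0.499. A row was called detected on an array where the deposited p-value was below 0.05, and a row was tested where it was detected on at least 3 of the 6 arrays. By this rule 26 rows were detected on all 6 arrays and 15 on 3 to 5 arrays, and these 41 rows were tested. A further 5 rows were detected on a single array each, namely CTAG2, MAGEA3 and MAGEB6 on DMSO replicate 2, and CTAGE6 and MAGEA9 on leflunomide replicate 3. The other 30 rows were detected on no array.

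**Figure D1:**
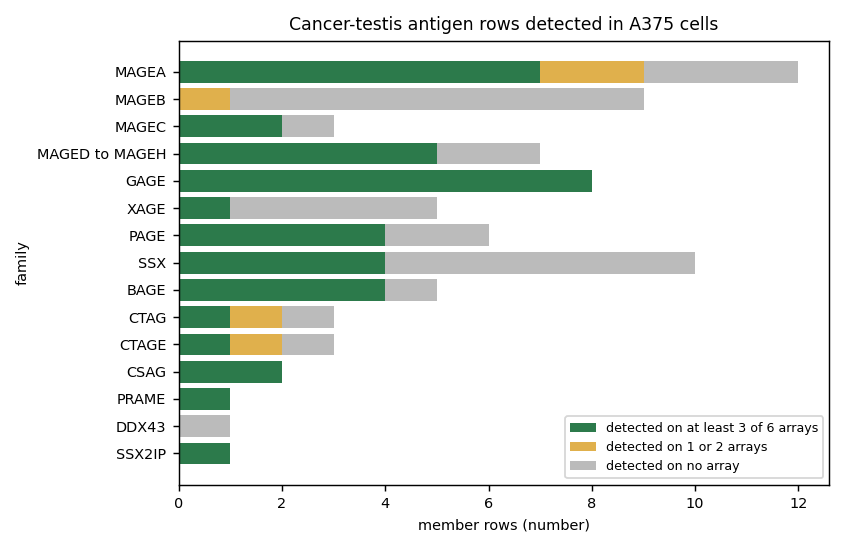
Number of member rows per gene family (horizontal axis) that were detected on at least 3 of 6 arrays, on 1 or 2 arrays, or on no array. All 8 GAGE rows and 7 of 12 MAGEA rows passed, while none of 9 MAGEB rows did.

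The MAGE genes encode adaptors of RING-type ubiquitin ligases. In the MAGEA group 7 of 12 rows were tested: MAGEA1, MAGEA2, MAGEA4, MAGEA6, MAGEA10, MAGEA11 and MAGEA12. MAGEA2B, MAGEA5 and MAGEA8 were detected on no array. None of the 9 MAGEB rows passed the filter, and MAGEB1, MAGEB2, MAGEB3, MAGEB4, MAGEB5, MAGEB6B, MAGEB10 and MAGEB18 were detected on no array. MAGEC1 and MAGEC2 were tested, and MAGEC3 was detected on no array. Of the more widely expressed MAGE genes, MAGED1, MAGED2, MAGEE1, MAGEF1 and MAGEH1 were tested on 6 detected arrays each, while MAGED4 and MAGEE2 were detected on none.

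All 8 rows of the GAGE family, small disordered proteins of germ cells, were tested. GAGE2, GAGE4, GAGE5, GAGE6, GAGE7, GAGE7B and GAGE8 were detected on all 6 arrays, and GAGE1 on 3. The related PAGE and XAGE families were more divided. PAGE1, PAGE2, PAGE2B and PAGE5 were detected on all 6 arrays, as was XAGE1, while PAGE3, PAGE4, XAGE2, XAGE3, XAGE-4 and XAGE5 were detected on none. Among 10 SSX rows, whose products are nuclear repressors known from fusions with SS18 in synovial sarcoma, SSX2, SSX3, SSX4 and SSX4B were tested. SSX1, SSX5, SSX6, SSX7, SSX8 and SSX9 were detected on no array.

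PRAME, a repressor of retinoic acid receptor signalling, was detected on all 6 arrays. So was CSAG2, while CSAG1, named like it for chondrosarcoma, was detected on 5. CTAG1A, a gene of the antigen NY-ESO-1, was tested, but its near-identical copy CTAG1B was detected on no array. BAGE, BAGE2, BAGE3 and BAGE5 were tested and BAGE4 was detected on no array. DDX43, an RNA helicase, and CTAGE1 were detected on none, while CTAGE5 and SSX2IP were tested.

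A row without detection was not always dim. The deposited table without gene names held single probes, and 67 of the 76 member rows equalled 1 probe or the mean of 2 or 3 probes in exactly 1 way, through 112 probes in all. Of the rows not tested, 9 contained a probe above its array's detection limit on at least 3 arrays, and 7 contained one above it on all 6. MAGEA3 was among the 7. One of its 2 probes read 189, 268 and 103 signal units on the leflunomide arrays and 231, 264 and 223 units on the DMSO arrays, where the limits were 46.3 to 70.2 units. One of 3 SSX1 probes read 173, 246 and 84.2 units with leflunomide and 208, 204 and 181 units with DMSO. The other rows of this kind were BAGE4, CTAG2, MAGEB2, MAGED4, SSX5, SSX6 and SSX9, so the detection of a row depended on how its probes were combined. Among the 67 rows matched to probes, no probe was found in 2 rows. The search could not find a probe shared by a row of 1 probe and a row of several. A probe for 1 copy may also bind transcripts of near-identical copies, such as CTAG1A and CTAG1B, SSX4 and SSX4B, MAGEA3 and MAGEA6, or the GAGE genes. These rows cannot be told apart by gene.

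Melanocyte genes were detected in part and germ cell genes not at all. The melanocyte factor SOX10 and the calcium binding protein S100A1 were detected on all 6 arrays. The pigment genes MLANA, TYR, TYRP1 and DCT, and S100B, were detected on none, MITF and GPR143 on 1 array each, and PMEL on 1 of 3 leflunomide arrays and all 3 DMSO arrays. None of 6 germ cell genes on the array, DDX4, DAZL, SYCP3, PRM1, PRM2 and TNP1, was detected on any array.

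Replicate 3 of leflunomide differed from all other arrays. It correlated with them at 0.890 to 0.902 over the normalized values of the rows tested, against 0.988 to 0.997 among the others. Its mean signal was 129 units, against 262 and 343 units on leflunomide replicates 1 and 2. The DMSO arrays had mean signals of 325, 371 and 318 units. Signals given in units are not normalized, so they also carry these differences in array brightness. Leflunomide replicate 3 detected 39.8% of the rows with a symbol, while the other arrays detected 47.8% to 49.9%. Of 9492 probes that were bright on the other 5 arrays, 482 (5.08%) lay below the negative control mean of 36.8 units on this array, and no such probe was found on any other array. Member values are therefore given with all 6 arrays and with this array left out. It was left out of the fit only, and stayed in the normalization and in the detection filter. In a bulk RNA sample, fewer expressing cells and less RNA per cell cannot be told apart.

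The lost probes touched members directly. One of 2 MAGEC2 probes read 2496, 3585 and 15.1 units on leflunomide arrays 1, 2 and 3 and 3286, 4398 and 2606 units on the DMSO arrays. One of 2 MAGEA4 probes read 932, 1353 and 11.3 units with leflunomide and 1337, 1750.2 and 1149 units with DMSO. The second probes of both genes kept their signal on leflunomide replicate 3, with 230.0 units for MAGEC2 and 1732 units for MAGEA4. A GAGE4 probe read 63.6 units there and 1584 to 2536 units elsewhere. The low MAGEC2, MAGEA4 and GAGE4 rows of that array thus went with single probes.

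**Figure D2:**
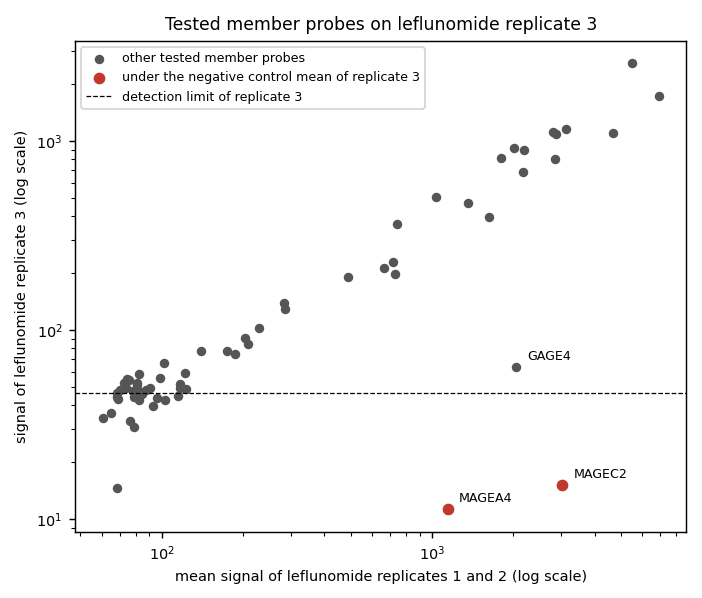
Signal of each tested member probe on leflunomide replicate 3 (vertical, log scale) against its mean on leflunomide replicates 1 and 2 (horizontal, log scale). Of 29 bright member probes, 2 fell below the negative control mean on replicate 3, 1 of MAGEC2 and 1 of MAGEA4, and a GAGE4 probe lay just above the detection limit.

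The number of members detected overlapped between the treatments at a detection p below 0.05. It was 38, 40 and 29 on the leflunomide arrays and 39, 42 and 39 on the DMSO arrays, or 35.7 ± 5.86 with leflunomide and 40.0 ± 1.73 with DMSO (SD, n = 3 each). The difference of -4.33 rows had a two-sided exact permutation p of 0.4, where the smallest p this design allows is 0.1. Without leflunomide replicate 3 the difference was -1.0 row (exact permutation p = 0.8). A combined row with a bright signal could count as undetected here, as MAGEA4 did on leflunomide replicate 3. At a detection p below 0.01 the counts did not overlap, with 28, 30 and 22 members on the leflunomide arrays and 32, 33 and 31 on the DMSO arrays, which gives the smallest p. The share of all rows with a symbol detected at a p below 0.05 did not overlap either. It was 48.0%, 47.8% and 39.8% on the leflunomide arrays and 49.1%, 49.9% and 48.7% on the DMSO arrays. The share of all rows at a detection p below 0.01 was not counted.

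**Figure D3:**
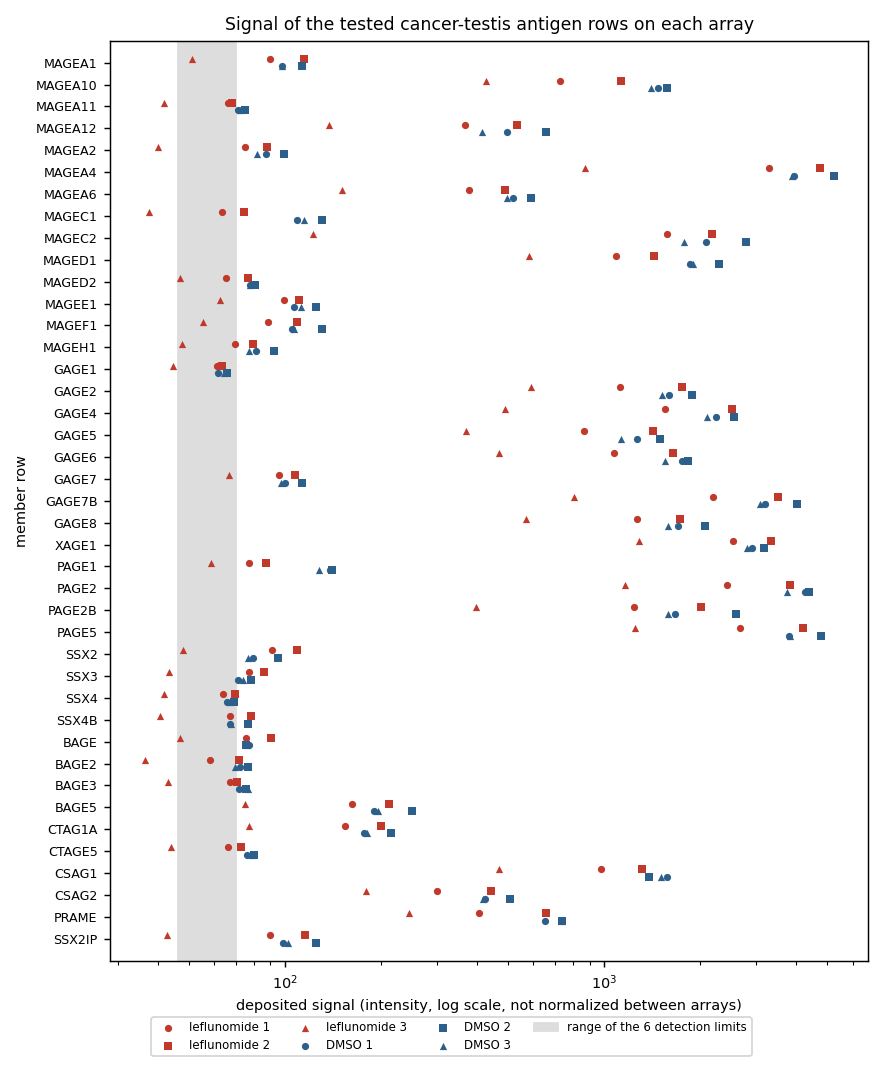
Deposited signal (horizontal, log scale, not normalized between arrays) of the 41 tested member rows on each leflunomide and DMSO array; the grey band spans the 6 detection limits. Leflunomide replicate 3 reads lowest in every row, and MAGEC1 and PAGE1 are among the rows that read lower on all leflunomide arrays than on any DMSO array. Mean signals of whole arrays were 262, 343 and 129 units with leflunomide and 325, 371 and 318 units with DMSO.

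One member passed the test with all 6 arrays: MAGEC1, an antigen of myeloma and melanoma, was lower with leflunomide. Its row read 63.3, 74.5 and 37.6 units on the leflunomide arrays and 109.3, 130.9 and 114.8 units on the DMSO arrays, and it was detected on 1 of 3 leflunomide arrays and on all 3 DMSO arrays. After normalization the values were 4.72, 4.95 and 4.53 on the log2 scale with leflunomide and 5.90, 5.96 and 5.97 with DMSO, so the groups were apart. The log2 fold change was -1.21 ± 0.13 (SE; limma, Benjamini-Hochberg adjusted p = 0.0228). Its size depended on the background correction, since it was -0.70 without background subtraction (adjusted p = 0.0424). Without leflunomide replicate 3 it was -1.11 ± 0.10 (adjusted p = 1.31e-05). Leaving out any other single array kept the value between -1.32 and -1.19 but ended the call, with adjusted p of 0.052 to 0.175.

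MAGEC1 had 3 probes, and 2 of them could be tested. The first read 74.2, 83.5 and 30.6 units with leflunomide and 134.7, 173.7 and 146.2 units with DMSO. The second read 62.0, 74.3 and 46.4 units with leflunomide and 128.7, 146.0 and 132.7 units with DMSO. Both read lower on every leflunomide array than on any DMSO array, in signals not normalized between arrays. Tested on its own in a limma fit of 18330 probes, the second gave a log2 fold change of -1.36 (adjusted p = 0.0155), the only member probe called with all 6 arrays, where 0.753% of all probes were called, 0.6% lower and 0.153% higher. The third probe read 53.8, 65.8 and 35.9 units with leflunomide and 64.7, 73.2 and 65.7 units with DMSO, near the detection limits. With leflunomide the first 2 probes read near these limits as well.

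That single call has to be read against all rows. Of 12421 rows tested, 134 were called (1.08%), 30 higher (0.242%) and 104 lower (0.837%) with leflunomide, and among the 41 members 1 was called (2.44%). At an unadjusted p below 0.05 there were 3 members, against 16.9% of all rows. Values of the treatments did not overlap for 8 members, 3 higher and 5 lower, against 29.8% of all rows, 14.5% higher and 15.3% lower. The median log2 fold change was -0.07 over the members and -0.00 over all rows, and the median size regardless of sign was 0.16 and 0.21. Median scaling of the arrays, used instead of quantile normalization, shifted the median of all rows to -0.53 and left no row called.

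With leflunomide replicate 3 left out, 7 of 41 members passed the test (17.1%). This share was near that of all rows, of which 2472 of 12421 were called (19.9%), 1204 higher (9.69%) and 1268 lower (10.2%). The 4 members lower with leflunomide were MAGEC1, PAGE1, MAGEA10 and MAGED1, and the 3 higher were SSX2, SSX3 and BAGE. The 34 members not called lay between -0.25 and 0.21 on the log2 scale. Values did not overlap for 7 members that were higher and 8 that were lower, against 48.4% of all rows, 24.7% higher and 23.7% lower. At an unadjusted p below 0.05 there were 9 members, against 32.9% of all rows. The median was -0.02 over the members and 0.01 over all rows.

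**Figure D4:**
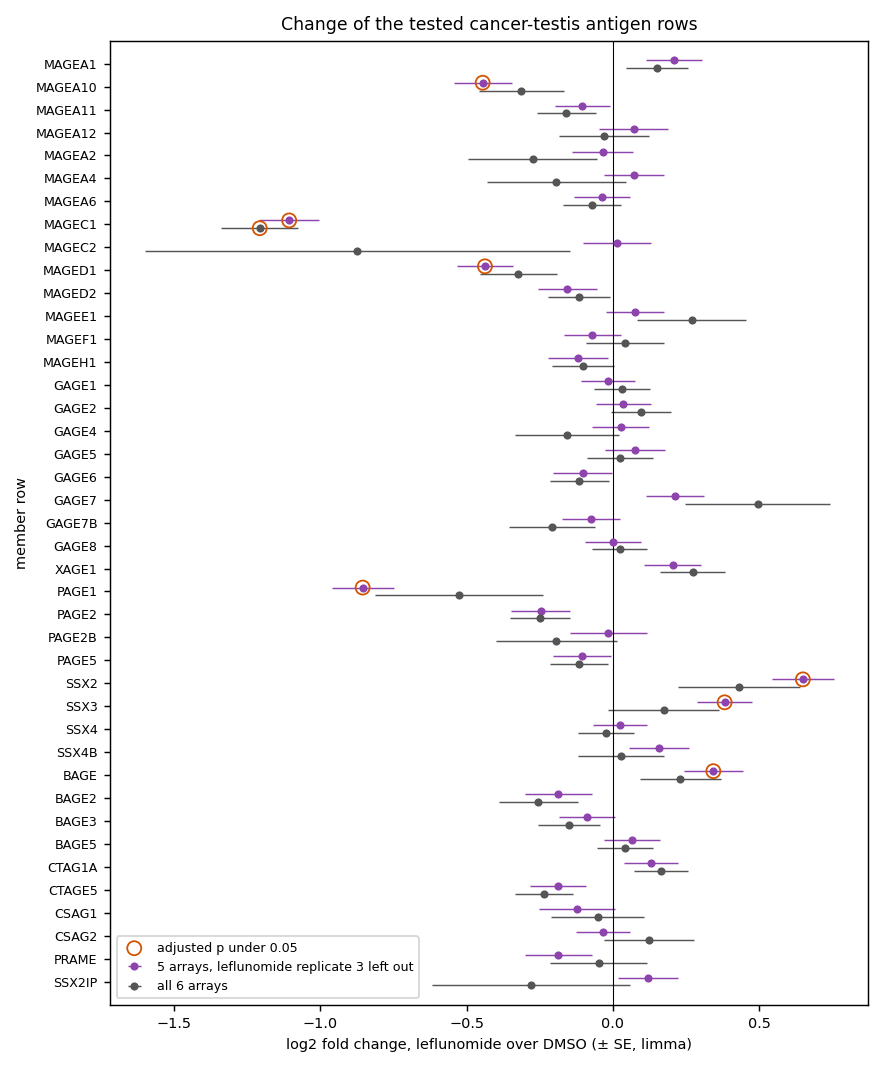
Log2 fold change, leflunomide over DMSO, of the 41 tested member rows with its SE, from all 6 arrays and from 5 arrays without leflunomide replicate 3; rings mark an adjusted p below 0.05. MAGEC1 is ringed in both fits, and PAGE1, MAGEA10, MAGED1, SSX2, SSX3 and BAGE only with 5 arrays.

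PAGE1, a germ cell protein related to GAGE, read 77.4, 87.4 and 58.9 units with leflunomide and 138.3, 140.2 and 127.8 units with DMSO. Its normalized values were 5.39, 5.33 and 6.35 with leflunomide and 6.36, 6.08 and 6.19 with DMSO. Leflunomide replicates 1 and 2 were below all DMSO arrays, while replicate 3 lay among them. The log2 fold change was -0.86 ± 0.11 (SE) on 5 arrays (limma adjusted p = 0.000136), or -0.51 without background subtraction, and -0.53 ± 0.29 on 6 (adjusted p = 0.414). The other tested members of the family, PAGE2, PAGE2B and PAGE5, had values of -0.25, -0.02 and -0.11 on 5 arrays and -0.25, -0.19 and -0.12 on 6, and were not called.

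MAGEA10, a MAGE adaptor of the melanoma antigen group, read 728, 1128 and 425 units with leflunomide and 1478, 1573 and 1403 units with DMSO. The log2 fold change was -0.45 ± 0.10 (SE) on 5 arrays (limma adjusted p = 0.00722) and -0.31 ± 0.14 on 6 (adjusted p = 0.343). Normalized values of leflunomide replicates 1 and 2 lay below every DMSO array, and replicate 3 overlapped them. MAGED1, which binds the neurotrophin receptor p75 and is expressed widely, read 1087, 1434 and 582 units with leflunomide and 1859, 2289.5 and 1905 units with DMSO. All leflunomide arrays lay below all DMSO arrays after normalization as well. Its log2 fold change was -0.44 ± 0.10 on 5 arrays (limma adjusted p = 0.00699) and -0.32 ± 0.13 on 6 (adjusted p = 0.293).

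The other tested MAGE antigens did not pass the test. MAGEA1, MAGEA2, MAGEA4, MAGEA6, MAGEA11 and MAGEA12 had log2 fold changes of 0.21, -0.03, 0.07, -0.04, -0.10 and 0.07 with 5 arrays and 0.15, -0.27, -0.19, -0.07, -0.16 and -0.03 with 6. MAGEC2, which activates the ubiquitin ligase TRIM28, read 1575, 2183 and 123 units with leflunomide and 2087, 2779 and 1783 units with DMSO. Its log2 fold change was -0.87 ± 0.73 (SE) with all arrays (limma adjusted p = 0.56) and 0.01 ± 0.12 without leflunomide replicate 3 (adjusted p = 0.958). The value of 6 arrays rested on the array with the lost probe. Among the widely expressed MAGE genes, MAGED2, MAGEE1, MAGEF1 and MAGEH1 had log2 fold changes of -0.16, 0.07, -0.07 and -0.12 with 5 arrays and -0.12, 0.27, 0.04 and -0.10 with 6, and were not called.

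**Figure D5:**
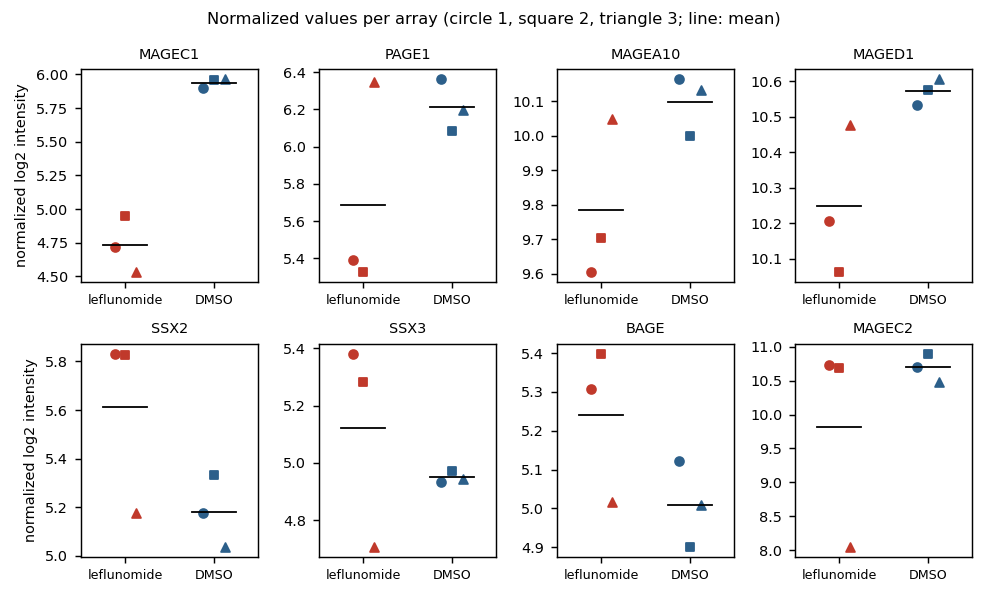
Normalized log2 intensity on each array (circle, square and triangle for replicates 1, 2 and 3; line, mean) of the 7 members called with 5 arrays and of MAGEC2, each panel with its own axis range. For PAGE1, MAGEA10, SSX2, SSX3 and BAGE, leflunomide replicate 3 overlaps the DMSO arrays or lies beyond them, while the MAGEC1 groups are apart.

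SSX2 read 91.1, 109.4 and 47.9 units with leflunomide and 79.2, 94.9 and 76.7 units with DMSO. Normalized values were 5.83, 5.83 and 5.17 with leflunomide and 5.18, 5.33 and 5.03 with DMSO, so that replicates 1 and 2 lay above the DMSO arrays and replicate 3 among them. The log2 fold change was 0.65 ± 0.11 (SE) on 5 arrays (limma adjusted p = 0.0011), or 0.36 without background subtraction, and 0.43 ± 0.21 on 6 (adjusted p = 0.36). SSX3 read 77.2, 85.7 and 43.4 units with leflunomide and 71.0, 78.3 and 73.9 units with DMSO, and was detected on 1 leflunomide and 2 DMSO arrays. Its log2 fold change was 0.38 ± 0.09 on 5 arrays (limma adjusted p = 0.0123) and 0.17 ± 0.19 on 6 (adjusted p = 0.641). SSX4 and SSX4B had values of 0.02 and 0.16 on 5 arrays and -0.02 and 0.03 on 6, and were not called.

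Single probes gave values for members whose combined rows were not detected. With 5 arrays, 10 of 63 tested member probes were called (15.9%), against 18.5% of all probes. Of these, 6 were lower, against 9.48% of all probes, and 4 were higher, against 9.02%. The SSX6 probe read 84.6, 108.0 and 43.9 units with leflunomide and 76.3, 85.2 and 70.9 units with DMSO, and its log2 fold change was 0.70 ± 0.12 (SE) on 5 arrays (limma adjusted p = 0.000511) and 0.37 on 6 (adjusted p = 0.55). The bright SSX1 probe had a log2 fold change of 0.36 ± 0.12 on 5 arrays (limma adjusted p = 0.0433) and 0.38 on 6 (adjusted p = 0.241). An SSX3 probe had 0.63 on 5 arrays and 0.39 on 6 (adjusted p = 0.455). Another SSX3 probe and the tested probes of SSX4B and SSX5 had 0.26, 0.29 and 0.30 on 5 arrays. On 6 arrays they had 0.39, 0.12 and 0.08, and they were called in neither fit. The SSX9 probe had -0.19 on 5 arrays and 0.18 on 6, and was not called. MAGEB2, whose row was detected nowhere, had a probe that read 80.3, 100.7 and 49.2 units with leflunomide and 126.4, 137.6 and 121.7 units with DMSO. That probe was lower on 5 arrays, at -0.54 ± 0.11 (limma adjusted p = 0.00241), and was not called on 6, at -0.59 (adjusted p = 0.0965).

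BAGE, a melanoma antigen family of regions next to centromeres, read 75.5, 90.4 and 46.9 units with leflunomide and 77.1, 75.5 and 75.9 units with DMSO. The log2 fold change was 0.34 ± 0.10 (SE) on 5 arrays (limma adjusted p = 0.0307) and 0.23 ± 0.14 on 6 (adjusted p = 0.448). BAGE2, BAGE3 and BAGE5 had values of -0.19, -0.09 and 0.07 on 5 arrays and -0.25, -0.15 and 0.04 on 6, and were not called. Without background subtraction on 5 arrays, BAGE at 0.18 and SSX3 at 0.20 were not called (limma adjusted p = 0.0994 and 0.0569).

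Changes of this size depended on the scaling. With 5 arrays scaled to a common median, the median of all rows shifted to -0.19 and 741 rows were called (5.97%), 32 higher (0.258%) and 709 lower (5.71%). The 3 members called were lower, as were most rows called: MAGEC1 at -1.39, PAGE1 at -1.18 and MAGEA10 at -0.71. SSX2, SSX3 and BAGE stayed positive at 0.52, 0.27 and 0.26 but were not called (limma adjusted p = 0.17, 0.52 and 0.544). SSX4 and SSX4B had -0.0027 and 0.078. MAGED1, at -0.68, was not called either (adjusted p = 0.0544).

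The remaining families showed no call in either fit. PRAME read 404, 655 and 245 units with leflunomide and 654, 736 and 733 units with DMSO. Its normalized values overlapped, at 8.68, 8.89 and 9.20 with leflunomide and 8.94, 8.83 and 9.14 with DMSO. The log2 fold change was -0.05 ± 0.17 (SE; limma adjusted p = 0.889) on 6 arrays and -0.19 ± 0.11 (adjusted p = 0.282) on 5. The 8 GAGE rows ranged from -0.21 to 0.49 with 6 arrays and from -0.10 to 0.21 with 5. GAGE1, GAGE2, GAGE4, GAGE5, GAGE6, GAGE7B and GAGE8 had 0.03, 0.10, -0.16, 0.03, -0.11, -0.21 and 0.02 with 6 arrays. The highest, GAGE7, read 96.0, 107.2 and 66.6 units with leflunomide and 100.01, 113.3 and 97.4 units with DMSO. Its log2 fold change was 0.49 ± 0.25 on 6 arrays (limma adjusted p = 0.377), with normalized values of 5.96, 5.79 and 6.72 with leflunomide and 5.70, 5.69 and 5.61 with DMSO. It turned to -0.10 under median scaling of 6 arrays. XAGE1 had 0.27 on 6 arrays and 0.20 on 5, CTAG1A 0.17 and 0.13, CSAG1 -0.05 and -0.12, and CSAG2 0.12 and -0.03. CTAGE5 had -0.24 on 6 arrays and -0.19 on 5, and SSX2IP -0.28 and 0.12.

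Cancer-testis genes outside these families were compared as well. Of 85 such genes on the array 37 were tested and none was called with all 6 arrays. The largest values there were -0.95 ± 1.33 for the spindle checkpoint kinase TTK, -0.68 for LDHC, a sperm lactate dehydrogenase, and -0.59 for the kinetochore gene KNL1. TTK read 575, 832 and 10.1 units with leflunomide and 503, 642 and 485 units with DMSO, so its value rested on leflunomide replicate 3. With 5 arrays 7 of the 37 were called, against 19.9% of all rows, 9.69% higher and 10.2% lower. Of the 7 genes called, 5 were higher, among them TTK at 0.69 ± 0.09 (SE; limma adjusted p = 0.000312) and the kinetochore gene NUF2 at 0.65, beside CEP55, PBK and ODF2 at 0.46, 0.39 and 0.29. SAGE1, an X-linked antigen, and ELOVL4, an enzyme of fatty acid elongation, were lower at -0.43 and -0.48. Only these 2 lower genes passed under median scaling of 5 arrays.

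Genes of DNA methylation and gene silencing, the machinery that keeps cancer-testis genes off in most tissues, formed a second list. Of 40 on the array 34 were tested and none was called with 6 arrays. The largest values were -0.97 for MBD3, 0.68 for CBX1 and 0.50 for CBX3, and MBD3 stood at 0.05 without leflunomide replicate 3. With 5 arrays 7 of the 34 were called, all 7 higher, against 19.9% of all rows called and 9.69% called higher. They were the heterochromatin proteins CBX1 (0.81 ± 0.12), CBX3 (0.37) and CBX5 (0.30), and HDAC3 (0.34), MORC2 (0.35) and EZH2 (0.31). The last was UHRF1 (0.68 ± 0.12), which guides maintenance methylation. Under median scaling of the 5 arrays none of the 34 was called. Of 13 partners of MAGE, PRAME and SSX proteins 11 were tested and none was called with 6 arrays. The largest values were -1.75 ± 1.38 for NSMCE1, which read 16.3 units on leflunomide replicate 3, 0.39 for USP7 and 0.36 for TRIM28. With 5 arrays 2 of the 11 were called, against 19.9% of all rows called and 9.69% called higher. They were TRIM28 (0.34) and PRKAA1 (0.28), a target of the MAGEA3 and TRIM28 ligase, both higher. Neither was called under median scaling.

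Markers of melanocytes and of other cell types were read beside the members. With 5 arrays PMEL, LUM, DCN and KRT14 were called, 4 of 10 tested markers, all lower with leflunomide, against 10.2% of all rows called lower, and the same 4 were called under median scaling of these arrays. Of the melanocyte genes, PMEL was lower with leflunomide at -1.06 ± 0.14 (SE; limma adjusted p = 0.0342) on 6 arrays and -1.17 on 5, while SOX10 had -0.34 and -0.18 and S100A1 -0.10 and -0.19, neither called. Of 5 fibroblast genes 3 were tested and none was called on 6 arrays, while LUM (-0.88) and DCN (-0.76) were lower on 5. Summed signals of the fibroblast genes ranged from 212 to 376 units on the leflunomide arrays and from 404 to 459 units on the DMSO arrays. Of 5 epithelial genes 2 were tested, and KRT14 was lower on 5 arrays (-0.55), with sums of 217 to 365 units with leflunomide and 385 to 398 units with DMSO. CD14, the tested gene of 5 blood markers, and PECAM1, the tested gene of 4 endothelial markers, were not called in either fit. The blood sums were 208 to 317 units with leflunomide and 286 to 317 units with DMSO, the endothelial sums 155 to 275 units with leflunomide and 257 to 279 units with DMSO. All these sums are of deposited signals, not normalized between arrays, and take in undetected genes. The 6 germ cell genes, detected on no array, summed to 225 to 360 units with leflunomide and 341 to 354 units with DMSO. The part of the cell type markers in the member values was not tested.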

How the data were processed

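RNA of A375 cells was measured on 6 Illumina bead arrays, 3 per treatment. The authors deposited linear intensity values without normalization, per the file headers, each beside a detection p-value; GenomeStudio is the tool named in the submitters' processing notes. The sources used here state neither its version nor a genome build or probe annotation. Intensity values of 48803 unnamed probes were deposited separately and matched these signals, after scaling each array by 1 factor, to within 2e-05 in natural log units. Combined rows can have detection p-values that are no rank of their signal.

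From the first table, signals were background-corrected with limma 3.58.1 (R 4.3.3) by normexp, with control parameters inferred from the 32290 rows whose p-value was a rank (within 0.001 of a multiple of 1 over 759), an offset of 16, and quantile normalization. Rows with a symbol detected (p below 0.05) on at least 3 arrays were fitted by treatment, and p-values were adjusted by Benjamini-Hochberg over 12421 rows. The fit was tested on simulated data with 200 changed rows. With 6 arrays it recovered 46% of rows changed by a log2 of 1 and 78% of those changed by 2. Without leflunomide replicate 3 it recovered 92% and 100%, with 8 false calls in either fit. The simulated noise was independent between rows and of 1 spread per row on all arrays. It held no array that stood apart, no lost probes and no shift in scale, so the count of false calls does not cover these. Detection limits of 46.3 to 70.2 units and the 3 arrays per treatment limit precision.

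Every member was named, with values on every array for members called in either fit, for PRAME and for the 6 tested members with the largest change; of the other lists (other cancer-testis genes, DNA methylation and silencing, partners, cell type markers), up to 3 genes with the largest change and those called. The members, lists and tests were chosen with earlier results of these data known. Probe sequences and proteins were not used here. The alternatives are in the closing section.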

Additional observations from a re-analysis of the deposited data

How the results depend on the processing

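With all 6 arrays as reported, 134 rows and 1 member, MAGEC1, were called. Under alternatives the counts over all rows and over members were 0 and 0 with median scaling, 73 and 0 with the scaled value table (8553 rows tested, in which MAGED1 and SSX2 have no value), 2551 and 8 with array weights, and 4 and 0 with the replicate block. Leaving out 1 array in turn gave 3 to 2472 rows and 0 to 7 members, with the highest counts without leflunomide replicate 3 and at most 6 rows for any other array. Without that array, the counts were 741 and 3 with median scaling and 2246 and 5 without background subtraction, 2 settings chosen after seeing the data, as was the fit of single probes. The correlations of deviations were -0.0093, 0.206 and 0.215 for arrays of the same number and ranged from -0.239 to 0.179 for unlike numbers. These values do not settle whether the array numbers pair the treatments.

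The member median of -0.07 became -0.61 with median scaling, -0.027 without a detection filter, -0.11 with detection on all arrays of a treatment, -0.10 with a detection p below 0.01, -0.14 with the scaled value table and -0.022 with array weights. It ranged from -0.10 to -0.017 with 1 array left out, and on 5 arrays was -0.22 with median scaling and -0.015 without background subtraction. The difference in members detected ranged from -6.5 to -1.0 with 1 array left out and was -5.33 at a detection p below 0.01 (exact permutation p = 0.1, the smallest possible, with no overlap between treatments). The share of all rows with a symbol detected at a p below 0.05 did not overlap between treatments either, and that at a p below 0.01 was not counted.

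MAGEC1 kept its call but moved to -0.70 without background subtraction and -0.66 with normexp fitted without control information and an offset of 50. It lost its call with median scaling (-1.49), the scaled value table (-0.49) and the replicate block (-1.21, limma adjusted p = 0.135). With 1 array left out PRAME ranged from -0.19 to 0.073 and MAGEC2 from -1.33 to 0.014. Signs turned for PRAME without leflunomide replicate 1 (0.073) and without DMSO replicate 3 (0.036), for MAGEC2 without leflunomide replicate 3 (0.014) and then also without background subtraction (0.013), and for GAGE7 with median scaling (-0.10 on 6 arrays, -0.0092 on 5). Apart from arrays left out, the cause was not tested.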
